A study of Mus musculus with 16 samples.

Results

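The collagen genes were followed in dorsal skin after acute withdrawal of TERT, the protein subunit of telomerase. They were taken as every probe set whose gene symbol is Col, a number, the letter a and a number, leaving out Col17a1, a transmembrane collagen of keratinocyte adhesion. This gave 81 of the 45101 probe sets, and they covered 41 of the 18194 genes named in the table. Of these, 11 genes encode chains of fibrillar collagens, 6 encode chains of basement membrane collagen (type IV), and 24 belong to other types. For the tests, 47 probe sets of 27 genes passed the filter on low signal: 9 of the fibrillar genes, 5 of the type IV genes and 13 of the others.

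Collagens are triple helices of chains with repeated glycine. Type I, III and V chains form the banded fibrils of the dermis and are made mainly by fibroblasts. Type IV chains form the sheet-like network of basement membranes under the epidermis, around hair follicles and around blood vessels, and type VII forms the anchoring fibrils that tie this sheet to the dermis. Other types decorate fibrils, form beaded filaments next to cells, or carry sugar chains within basement membranes. During the growth phase of the hair cycle (anagen), the follicle extends downward through the dermis, and its matrix is remodelled when growth stops.

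All mice carried the same transgenes, iK5-TERT (K5tTA-tetop-TERT): the keratin 5 promoter drives a transactivator that keeps Tert on in the basal epidermis and outer root sheath unless doxycycline is present. Dermal fibroblasts, the main source of fibrillar collagen, lie outside the reach of this promoter. Doxycycline in the drinking water had kept the transgene off during development. TERT-off mice received doxycycline (8 µg/g body weight) and TERT-on mice received vehicle (PBS) at day 60, in TERT-induced anagen, and biopsies of 3 cm², freed of subcutaneous fat, were taken at 0, 6, 12 and 24 h. The 16 arrays fell into 8 groups of cohort and time, with 2 in each. The labels call the arrays biological replicates and mark the TERT-off biopsies at 0 h as injected, although by the study's account they preceded the injection. Same-numbered arrays within a cohort were treated as repeated sampling of 1 animal, which gives 4 mice, 2 in each cohort.

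The values are intensities on a linear scale per probe set, and they are compared here between arrays, never between genes. Array medians ran from 32.9 to 36.3. The array of TERT-on mouse 1 at 0 h stood apart in RNA quality, with a ratio of 5′ to 3′ Gapdh signal of 0.0599 against 0.977 to 1.12 elsewhere. TERT-off mouse 1 stood apart already at 0 h: its hair shaft and matrix genes had a mean log2 intensity of 4.84, against 8.81 to 10.14 in the other 3 mice. Results are therefore also given without it. The number of arrays limits the precision throughout, and an exact permutation test of 2 mice against 2 could not go below a two-sided p of 0.333.

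Whether collagen expression differed once TERT was withdrawn was asked over the 3 later times together. Averaged over 6, 12 and 24 h, 10 of the 27 collagen genes differed between cohorts (limma with Benjamini-Hochberg adjustment over all probe sets, adjusted p under 0.05): 7 were higher in TERT-off skin and 3 were lower. Over all 12580 genes tested, 29.5% were called, 16.9% higher and 12.6% lower, so the collagen count lay close to that of all genes. With each array centred on its median, the shares of all genes became 14.0% higher and 16.8% lower, and the collagen calls became 6 higher and 3 lower. The higher genes were Col5a2, Col1a2 and Col3a1 among the fibrillar genes, and Col6a1, Col7a1, Col14a1 and Col20a1 among the others. The lower genes were Col18a1, Col12a1 and the type IV gene Col4a5. Col20a1 passed the filter through TERT-off arrays alone, so its call is a description and supports nothing. With a filter on at least 8 arrays, which dropped it, 9 of 25 genes were called, 6 higher and 3 lower. The median log2 difference of the 27 genes was 0.27, against 0.04 for all genes, and 18 of the 27 lay above 0.

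**Figure D1:**
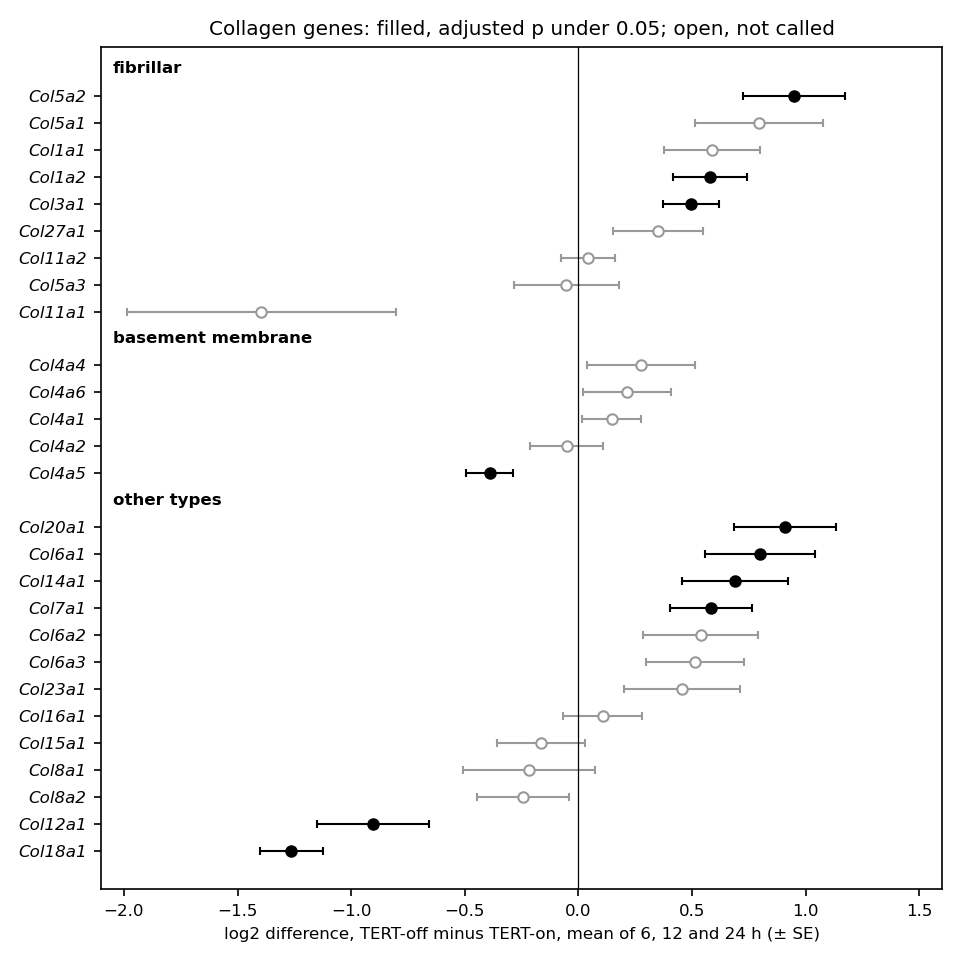
Log2 difference of 27 collagen genes between TERT-off and TERT-on skin, as the mean of 6, 12 and 24 h (x axis), with 1 row per gene grouped by class. Points are limma estimates from 16 arrays, bars are standard errors, and filled points passed an adjusted p of 0.05. The 7 genes called higher lie between 0.49 and 0.95, and Col18a1 lies lowest of the genes called, at -1.26.

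These calls rested on few mice. Without TERT-off mouse 1, which stood apart at 0 h, 2 collagen genes were called, Col18a1 and the filter-dependent Col20a1, where 21.6% of all genes were. Without TERT-on mouse 1, 2 were called, Col18a1 and Col5a2, where 4.57% of all genes were. Without TERT-on mouse 2, none was called by limma, 10 of the 27 had an unadjusted p under 0.05, and the share of all genes called fell to 0.361%. Without TERT-off mouse 2, 12 were called, among them 8 of the 10, where 35.4% of all genes were. In each of these fits the lone mouse is assumed to vary like the others, and all 10 genes kept their direction. In bulk skin, fewer cells of a type and less RNA per cell cannot be told apart.

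Of the 9 fibrillar genes tested, 3 were called higher over 6 to 24 h and none lower, against 16.9% and 12.6% of all genes. Their median log2 difference was 0.49. Type I collagen, the most abundant protein of the dermis, is made of chains encoded by Col1a1 and Col1a2. In TERT-off skin, Col1a1 measured 1674, 2869.8, 1556 and 1914 in mouse 1 and 1741, 1755, 1991 and 1496 in mouse 2 at 0, 6, 12 and 24 h. The TERT-on values were 1404, 797, 1147 and 2172 in mouse 1 and 1998, 1434, 1108 and 1227 in mouse 2. At 6 h both TERT-off values exceeded both TERT-on values, and at 24 h TERT-on mouse 1 was the highest of the 4 mice. The log2 difference over 6 to 24 h was 0.59 ± 0.21 (SE), with an adjusted p of 0.0583, which did not pass. A second Col1a1 probe set did, at 0.82 ± 0.26 (adjusted p = 0.0397).

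Col1a2 intensities at 0, 6, 12 and 24 h were 5263, 7712, 6673 and 5701 in TERT-off mouse 1 and 5389.9, 5094, 7113 and 6479 in TERT-off mouse 2. In TERT-on skin it measured 4753, 2999, 4575 and 6057 in mouse 1 and 5883, 4994, 3519.6 and 4220.5 in mouse 2. Both TERT-off mice lay above both TERT-on mice at 6 and 12 h, and TERT-on mouse 1 lay between the TERT-off mice at 24 h. The log2 difference was 0.58 ± 0.16 (limma, adjusted p = 0.0233). Of its other probe sets, 1 was called, at 1.07 ± 0.32 (adjusted p = 0.0287), and 1, with an empty cell in TERT-off mouse 1 at 6 h, was not, at 0.54 ± 0.22 (adjusted p = 0.0930).

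Col3a1 encodes type III collagen, which shares fibrils with type I in skin. At 0, 6, 12 and 24 h in turn, Col3a1 stood at 5216, 6946, 5580.0 and 5791 in TERT-off mouse 1 and at 5032, 4734, 5912 and 5395 in TERT-off mouse 2. TERT-on mouse 1 gave 4624, 3289, 4799 and 4512, and TERT-on mouse 2 gave 5516, 4519.7, 3655 and 3683. At each later time the TERT-off mice lay above the TERT-on mice, although the ranges over all 6 arrays overlapped because TERT-on mouse 1 at 12 h exceeded TERT-off mouse 2 at 6 h. The log2 difference was 0.49 ± 0.12 (adjusted p = 0.0155), and a second probe set gave 0.83 ± 0.22 (adjusted p = 0.0187).

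Col5a2 encodes a chain of type V collagen, which sits in the core of type I fibrils and limits their width. In TERT-off skin, Col5a2 measured 1338, 2016, 1631 and 1780.4 in mouse 1 and 1088, 1103, 1629.6 and 1184 in mouse 2 at 0, 6, 12 and 24 h. The TERT-on values were 719, 705, 1102 and 1029 in mouse 1 and 1117, 797, 666 and 568 in mouse 2. All 6 later TERT-off arrays, from 1103 to 2016, lay above all 6 TERT-on arrays, from 568 to 1102, by a narrow margin at the border. Col5a2 had the largest log2 difference among the genes called higher, 0.95 ± 0.22 (adjusted p = 0.0120). At 0 h its difference was already 0.43, which was not called. Its later level minus that at 0 h was 0.43 and 0.24 in the TERT-off mice, 0.37 in TERT-on mouse 1 and -0.74 in TERT-on mouse 2. A second Col5a2 probe set was also called, at 0.66, but its later arrays overlapped, at 304 to 555 in TERT-off and 171 to 322 in TERT-on skin. Among the 27 collagen genes, Col5a2 and Col18a1 were the 2 whose later arrays did not overlap between cohorts, a pattern that 11.4% of all genes shared (6.59% with TERT-off above and 4.83% with TERT-off below).

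The partner chain Col5a1 measured 651 to 1607 over the later TERT-off arrays (median 838) and 369.6 to 859 over the TERT-on arrays (median 504). Its log2 difference of 0.80 ± 0.28 did not pass (adjusted p = 0.0572), while 1 of its other probe sets did, at 0.79 ± 0.26 (adjusted p = 0.0414). The third type V gene, Col5a3, stood at -0.05 ± 0.23 (adjusted p = 0.887). Col27a1, of a minor fibrillar type, stood at 0.35 ± 0.20 (adjusted p = 0.218) and Col11a2, of type XI, at 0.04 ± 0.12 (adjusted p = 0.823).

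Col11a1, the other type XI chain, is best known from cartilage. Col11a1 intensities at 0, 6, 12 and 24 h were 71.8, 22.1, 14.6 and 42.2 in TERT-off mouse 1 and 215, 243, 46.1 and 47.4 in TERT-off mouse 2. In TERT-on skin it measured 139, 68.5, 67.2 and 301 in mouse 1 and 245, 148, 119 and 97.5 in mouse 2. The spread among mice was wide, from 14.6 in TERT-off mouse 1 at 12 h to 301 in TERT-on mouse 1 at 24 h. The log2 difference of -1.39 ± 0.59 was the largest in size of any collagen gene but did not pass (adjusted p = 0.101). A second probe set was called at -1.57 ± 0.53 (adjusted p = 0.0470), with 3 arrays of TERT-off mouse 1 under the floor of 7.71 and raised to it. Of 6 chondrocyte markers, 1 (Acan) could be tested, and it was not called.

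The promoters of 2 called fibrillar genes are shown because both genes were called in the same direction. Of the 27 tested genes, 23 had a promoter entry in RefSeq (GRCm38.p6), with 25 start sites. The 250 bases before each start were searched on both strands. The first motif was CCAAT, the letters of the CCAAT box. Another was GGGCGG, the core of a GC box, which reads CCGCCC on the opposite strand. The last was TATAAA, the letters of the TATA box. No matches overlap in the windows printed, where capitals mark them, and a match on the opposite strand appears there as its reverse complement.
Col1a2, chr6:4505368-4505617, plus strand: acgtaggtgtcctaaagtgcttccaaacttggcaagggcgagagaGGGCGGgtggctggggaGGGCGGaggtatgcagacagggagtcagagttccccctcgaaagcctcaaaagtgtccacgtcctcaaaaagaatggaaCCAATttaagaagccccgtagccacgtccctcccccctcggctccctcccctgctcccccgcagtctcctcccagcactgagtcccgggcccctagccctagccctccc
Col3a1, chr1:45311288-45311537, plus strand: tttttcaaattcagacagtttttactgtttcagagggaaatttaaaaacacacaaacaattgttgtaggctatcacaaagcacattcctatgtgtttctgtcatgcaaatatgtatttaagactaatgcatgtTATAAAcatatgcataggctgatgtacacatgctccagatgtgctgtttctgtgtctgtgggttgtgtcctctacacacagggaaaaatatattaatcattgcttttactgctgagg
Col1a2 held GGGCGG at 205 and 188 bases before its start and CCAAT at 109 bases before it. Col3a1 held TATAAA at 117 bases before its start and neither of the others. Across the collagen start sites, 9 of 25 windows held CCAAT, 17 of 25 held GGGCGG and 2 of 25 held TATAAA, against 33.8%, 32.7% and 12.4% of all 32851 windows. These matches describe letters and are not binding sites.

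**Figure D2:**
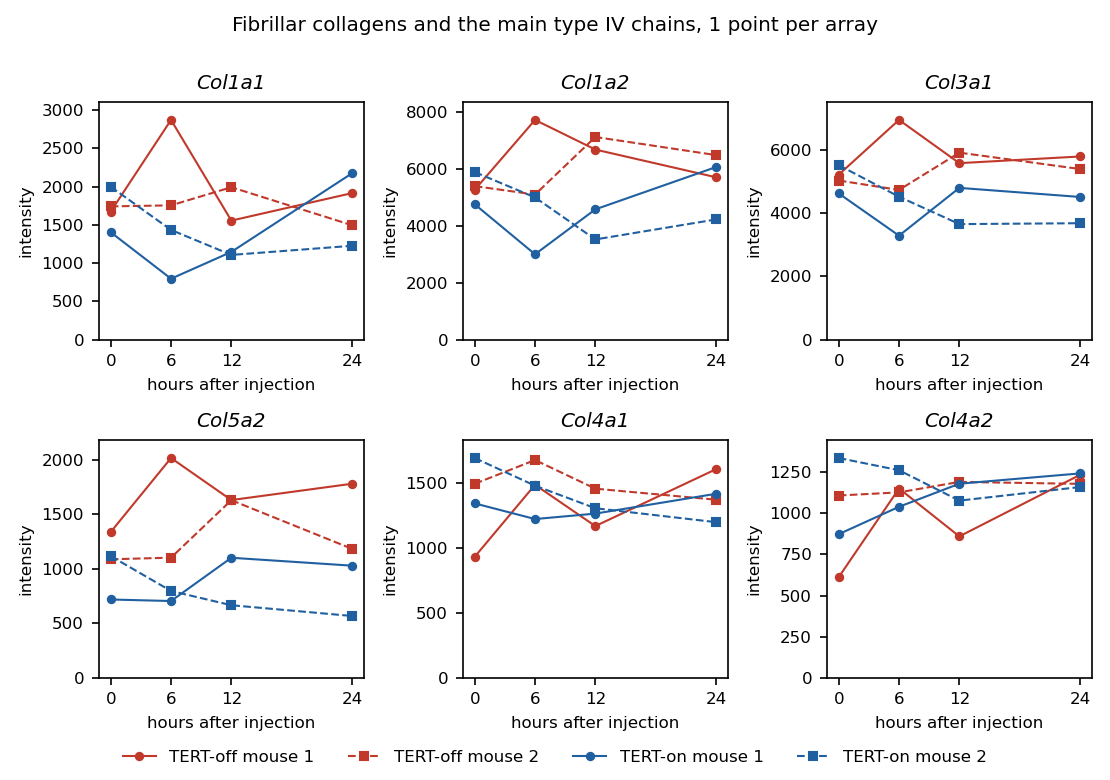
Intensity (y axis, linear and starting at 0) against hours after injection for 4 fibrillar genes and the main type IV chains, with 1 point per array and 1 line per mouse. For Col5a2 all later TERT-off points lie above the TERT-on points, while the lines of Col4a1 and Col4a2 cross.

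Type IV collagen showed no shared direction. Of its 5 genes tested, 1 was called lower and none higher, against 12.6% and 16.9% of all genes. Their median log2 difference was 0.15. Col4a1 and Col4a2 encode the chains present in every basement membrane. At 0, 6, 12 and 24 h in turn, Col4a1 stood at 931, 1484, 1167 and 1604 in TERT-off mouse 1 and at 1492, 1675, 1455 and 1369.6 in TERT-off mouse 2. TERT-on mouse 1 gave 1341, 1221, 1263 and 1415, and TERT-on mouse 2 gave 1690.1, 1477, 1304 and 1197. The cohorts overlapped at each later time except 6 h, when both TERT-off values were the higher by a small margin. In TERT-off skin, Col4a2 measured 612, 1151, 859.8 and 1234 in mouse 1 and 1108, 1127, 1191 and 1179 in mouse 2 at 0, 6, 12 and 24 h. The TERT-on values were 873, 1039.7, 1179.9 and 1242 in mouse 1 and 1336, 1262, 1077 and 1159.6 in mouse 2. The lowest array was TERT-off mouse 1 at 0 h. The log2 differences were 0.15 ± 0.13 for Col4a1 (adjusted p = 0.428) and -0.05 ± 0.16 for Col4a2 (adjusted p = 0.837).

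Col4a5 encodes a chain of the type IV network found beneath the epidermis. Col4a5 intensities at 0, 6, 12 and 24 h were 179.8, 173, 118 and 95.0 in TERT-off mouse 1 and 189, 161, 139 and 104 in TERT-off mouse 2. In TERT-on skin it measured 225, 180.0, 155 and 143 in mouse 1 and 194, 176, 187 and 176 in mouse 2. Both TERT-off mice lay below both TERT-on mice at every time, 0 h included, when the difference was not called. At 24 h the values were 95.0 and 104 against 143 and 176. The log2 difference over 6 to 24 h was -0.39 ± 0.10 (adjusted p = 0.0189), and with 1 mean per mouse it did not pass (adjusted p = 0.0710). Within TERT-off skin, Col4a5 fell by 0.89 on the log2 scale to 24 h (SE 0.16, adjusted p = 0.0367), where 0.612% of all genes were called and 0.111% were called lower. In TERT-on skin its change to 24 h was -0.40, which was not called. By mouse, the mean later level minus 0 h was -0.53 and -0.51 in TERT-off skin and -0.50 and -0.11 in TERT-on skin. The difference between cohorts in this change was -0.21 and was not called. A second Col4a5 probe set showed no difference between cohorts over 6 to 24 h, at -0.03 ± 0.13 (adjusted p = 0.882). From 0 to 24 h it went from 58.3 to 47.3 and from 55.0 to 60.4 in the TERT-off mice. In the TERT-on mice it went from 85.1 to 53.9 and from 72.9 to 54.5. The fall in both TERT-off mice was thus seen on the first probe set alone. The partner of Col4a5 in that network, Col4a6, stood at 0.21 ± 0.19 (adjusted p = 0.440) and Col4a4 at 0.27 ± 0.24 (adjusted p = 0.417).

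Type VI collagen forms beaded filaments close to cells, from chains encoded by Col6a1, Col6a2 and Col6a3. At 0, 6, 12 and 24 h in turn, Col6a1 stood at 889.5, 1499.9, 758 and 999 in TERT-off mouse 1 and at 1002, 870.2, 1033 and 802 in TERT-off mouse 2. TERT-on mouse 1 gave 716, 449.6, 572 and 925, and TERT-on mouse 2 gave 1125, 666, 449 and 413. In TERT-on mouse 2 each value was lower than the one before it, from 1125 at 0 h to 413 at 24 h, and TERT-on mouse 1 at 24 h lay within the TERT-off range. Col6a1 was called, with a log2 difference of 0.80 ± 0.24 (adjusted p = 0.0316). In TERT-off skin, Col6a2 measured 1562, 1891, 876 and 1492 in mouse 1 and 1411, 1199, 1284 and 1019 in mouse 2 at 0, 6, 12 and 24 h. The TERT-on values were 907, 703, 844 and 1416 in mouse 1 and 1718, 1062, 694 and 667 in mouse 2. Its pattern over the arrays was close to that of Col6a1, but the difference of 0.54 ± 0.25 did not pass (adjusted p = 0.135). Col6a3 likewise stood at 0.51 ± 0.21 (adjusted p = 0.0973).

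Col7a1 encodes the anchoring fibril collagen, made by keratinocytes and fibroblasts. Col7a1 intensities at 0, 6, 12 and 24 h were 286, 362, 310.4 and 258 in TERT-off mouse 1 and 239, 245, 376 and 308 in TERT-off mouse 2. In TERT-on skin it measured 276, 147, 219 and 314 in mouse 1 and 316, 223, 175 and 185 in mouse 2. Both TERT-off mice were higher at 6 and 12 h, and at 24 h TERT-on mouse 1 had the highest value. The log2 difference was 0.58 ± 0.18 (adjusted p = 0.0357). The difference was 0.58 without TERT-off mouse 1, where its adjusted p was 0.0773.

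The collagens that attach to the surface of fibrils went in both directions. Col12a1, of type XII, was lower in TERT-off skin. At 0, 6, 12 and 24 h in turn, Col12a1 stood at 173, 65.0, 67.1 and 212 in TERT-off mouse 1 and at 258, 175, 95.3 and 221 in TERT-off mouse 2. TERT-on mouse 1 gave 215, 193, 382 and 232, and TERT-on mouse 2 gave 239, 218, 208 and 188. The gap was widest at 12 h, at 67.1 and 95.3 against 382 and 208, and it had closed at 24 h, when the values of all 4 mice lay between 188 and 232. At 12 h Col12a1 was called at -1.82 ± 0.40 (adjusted p = 0.0452), and over 6 to 24 h at -0.90 ± 0.25 (adjusted p = 0.0207). With 1 mean per mouse the latter did not pass (adjusted p = 0.0558). Its size depended on TERT-off mouse 1, without which the difference was -0.57 (adjusted p = 0.0696). A second Col12a1 probe set was not called, at -0.40 ± 0.16 (adjusted p = 0.0911).

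Col20a1, of type XX, had low signal. The 6 arrays on which it exceeded the table median of 34.4 were all TERT-off, so it entered the test only through the cohort where it was high, and a filter on at least 8 arrays dropped it. In TERT-off skin, Col20a1 measured 35.7, 64.1, 44.8 and 47.1 in mouse 1 and 27.8, 27.6, 51.1 and 44.5 in mouse 2 at 0, 6, 12 and 24 h. The TERT-on values were 12.8, 23.4, 31.8 and 15.2 in mouse 1 and 20.2, 23.6, 34.4 and 21.0 in mouse 2. Both TERT-off mice lay above both TERT-on mice at every time, 0 h included, when the log2 difference was 0.97 ± 0.36 (adjusted p = 0.562). Over 6 to 24 h it was 0.91 ± 0.22, given as a description. Col14a1, of type XIV, was called at 0.69 ± 0.23 (adjusted p = 0.0476). Without TERT-on mouse 2 its difference was 0.45 (adjusted p = 0.270), and its second probe set was not called, at 0.30 ± 0.19 (adjusted p = 0.265). Col16a1 stood at 0.11 ± 0.17 (adjusted p = 0.682).

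The clearest single difference among the collagen genes was that of Col18a1, a basement membrane collagen that carries heparan sulphate and whose end piece is known as endostatin. Col18a1 intensities at 0, 6, 12 and 24 h were 385, 278, 238 and 372 in TERT-off mouse 1 and 595, 400.4, 309 and 381 in TERT-off mouse 2. In TERT-on skin it measured 559, 749, 947 and 631 in mouse 1 and 658, 784, 811 and 779 in mouse 2. All 6 later TERT-off arrays, from 238 to 400.4, lay below all 6 TERT-on arrays, from 631 to 947. TERT-off mouse 1 was already the lowest at 0 h, while TERT-off mouse 2 then lay between the TERT-on mice. The log2 difference over 6 to 24 h was -1.26 ± 0.14 (adjusted p = 8.97e-04), and it was -1.11 without TERT-off mouse 1 (adjusted p = 0.00278). At 0 h alone it was -0.34 (adjusted p = 0.707), then -1.20 by 6 h (adjusted p = 0.0379), -1.69 at 12 h (adjusted p = 0.0130) and -0.90 at 24 h (adjusted p = 0.0666). A second probe set gave -1.07 ± 0.18 (adjusted p = 0.00385) over 6 to 24 h.

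Both start sites that RefSeq gives for Col18a1 are shown because the gene has a short and a long form from separate promoters, which the probe sets were not matched to here. Both lie on the minus strand of chromosome 10 in GRCm38.p6, and capitals mark the same letters as above.
Col18a1, chr10:77166531-77166780: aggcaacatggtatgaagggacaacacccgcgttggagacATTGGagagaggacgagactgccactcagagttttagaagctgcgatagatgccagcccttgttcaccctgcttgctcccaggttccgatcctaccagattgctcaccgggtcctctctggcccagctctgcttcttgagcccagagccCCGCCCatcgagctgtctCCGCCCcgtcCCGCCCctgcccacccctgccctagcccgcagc
Col18a1, chr10:77113706-77113955: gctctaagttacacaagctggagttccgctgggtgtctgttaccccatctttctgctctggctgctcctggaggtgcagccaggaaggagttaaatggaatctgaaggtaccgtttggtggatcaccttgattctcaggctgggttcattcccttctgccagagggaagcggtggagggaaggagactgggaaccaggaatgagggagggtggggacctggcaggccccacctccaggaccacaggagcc
The first of these windows held ATTGG at 210 bases before the start and CCGCCC at 61, 43 and 33 bases before it. The second window held none of the letters searched.

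Col15a1 encodes type XV, the closest relative of type XVIII. At 0, 6, 12 and 24 h in turn, Col15a1 stood at 198, 138, 69.2 and 128 in TERT-off mouse 1 and at 201, 145, 106 and 79.8 in TERT-off mouse 2. TERT-on mouse 1 gave 246, 95.8, 109.5 and 169.6, and TERT-on mouse 2 gave 271, 157, 99.4 and 108. In every mouse the level was highest at 0 h, and the cohorts overlapped afterwards. The log2 difference of -0.17 ± 0.19 was not called (adjusted p = 0.558). Its change from 0 h was -0.90 in TERT-off skin (adjusted p = 0.135) and -1.11 in TERT-on skin (adjusted p = 0.0741), so neither passed. Of the remaining genes, Col8a1 and Col8a2, of the short-chain network type, stood at -0.22 ± 0.29 and -0.24 ± 0.20, and the transmembrane Col23a1 at 0.46 ± 0.25 (adjusted p = 0.607, 0.396 and 0.205).

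**Figure D3:**
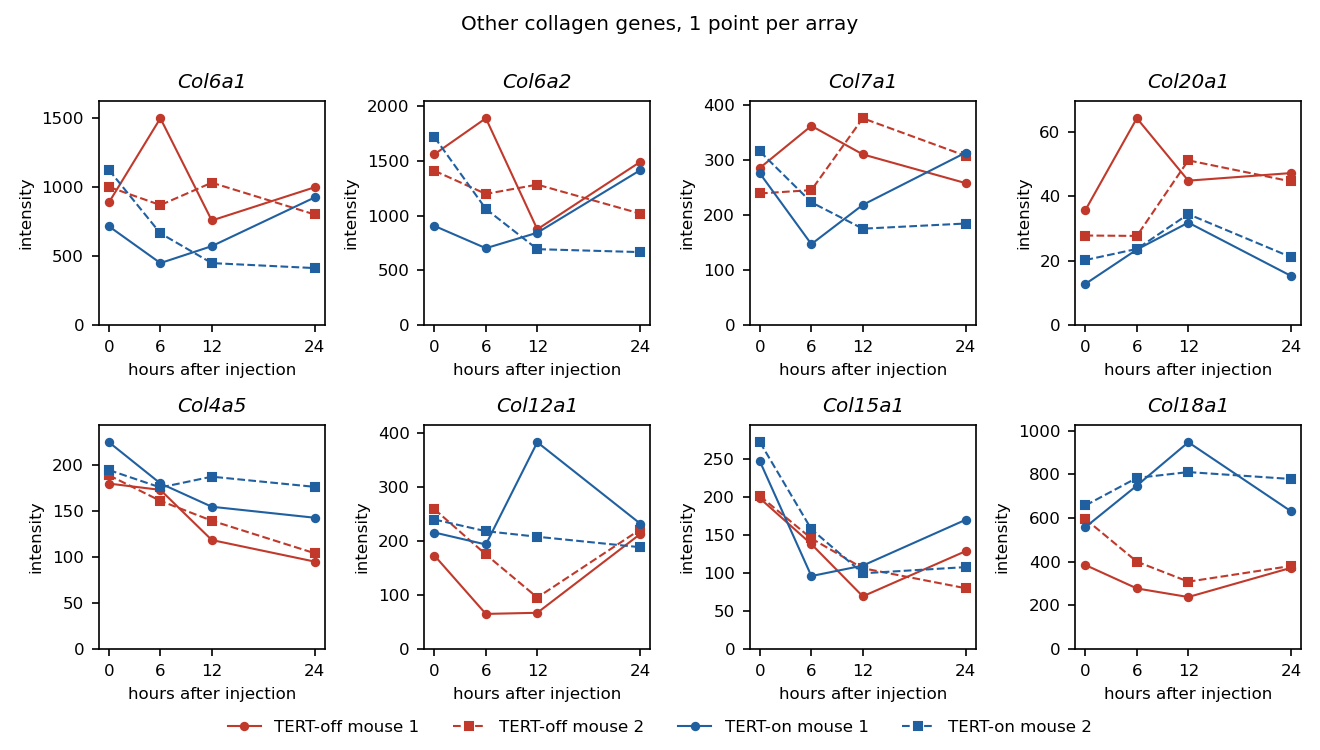
Intensity (y axis, linear and starting at 0) against hours after injection for 8 collagen genes (Col6a1, Col6a2, Col7a1, Col20a1, Col4a5, Col12a1, Col15a1 and Col18a1), with 1 point per array and 1 line per mouse. Col18a1 shows TERT-off lines below TERT-on lines from 6 h on, and Col12a1 shows the same at 6 and 12 h but not at 24 h.

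Time was examined next. At 0 h no collagen gene was called between cohorts, 1 had an unadjusted p under 0.05, and 0.0397% of all genes were called. At 6 h 1 collagen gene was called (Col18a1) where 1.74% of all genes were, and at 12 h 2 were (Col18a1 and Col12a1) where 2.57% were. At 24 h none was called and 6 had an unadjusted p under 0.05, where 2.42% of all genes were called. The median log2 difference over the 27 genes was -0.05 at 0 h, then 0.37 at both 6 and 12 h, and 0.19 after 24 h, against -0.02, 0.04, 0.06 and 0.01 for all genes. For the 9 fibrillar genes it was 0.03, 0.57, 0.46 and 0.27, and for the 5 type IV genes -0.35, 0.23, 0.02 and -0.50. These medians moved with single mice. Without TERT-on mouse 2 those of the collagen genes were 0.15, 0.63, 0.12 and -0.14 in the same order, and without TERT-on mouse 1 they were -0.19, 0.31, 0.47 and 0.38. Without TERT-off mouse 1 they were -0.0026, 0.32, 0.50 and 0.093, and without TERT-off mouse 2 they were -0.0069, 0.59, 0.19 and 0.11.

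The direct test of whether the cohort difference grew or shrank from 6 to 24 h called no collagen gene by limma, with 6 at an unadjusted p under 0.05 and 0.215% of all genes called. The median of this difference was -0.43, and it was 0.20 without TERT-on mouse 1, -0.10 without TERT-off mouse 1 and -0.72 without TERT-on mouse 2. Leaving out TERT-on mouse 1 thus changed its sign, and leaving out TERT-off mouse 1 reduced its size.

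Within the cohorts, the average later level against the level at 0 h gave no called collagen gene in either. In TERT-off skin the median change was 0.04, with 14 of 27 genes above 0, 6 at an unadjusted p under 0.05 and 0.493% of all genes called. In TERT-on skin the median change was -0.37, with 6 of 27 genes above 0, 5 at an unadjusted p under 0.05 and 0.183% of all genes called. Over all genes these medians were 0.01 and -0.05. Without the array of TERT-on mouse 1 at 0 h, whose RNA quality differed, the TERT-on median was -0.46. Without TERT-on mouse 2 it was -0.16.

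By mouse, the median change was -0.15 in TERT-off mouse 1 and 0.00198 in TERT-off mouse 2, against -0.16 in TERT-on mouse 1 and -0.49 in TERT-on mouse 2. TERT-on mouse 2 had 23 of 26 genes below 0. All 8 of its fibrillar genes with a value at 0 h were below 0, against 7 of 9 in TERT-on mouse 1, 4 of 9 in TERT-off mouse 1 and 5 of 9 in TERT-off mouse 2. The difference between the cohorts in this change was called for no collagen gene (2 at an unadjusted p under 0.05, 0.00795% of all genes called), with a median of 0.34. Without TERT-on mouse 2 that median was -0.01.

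**Figure D4:**
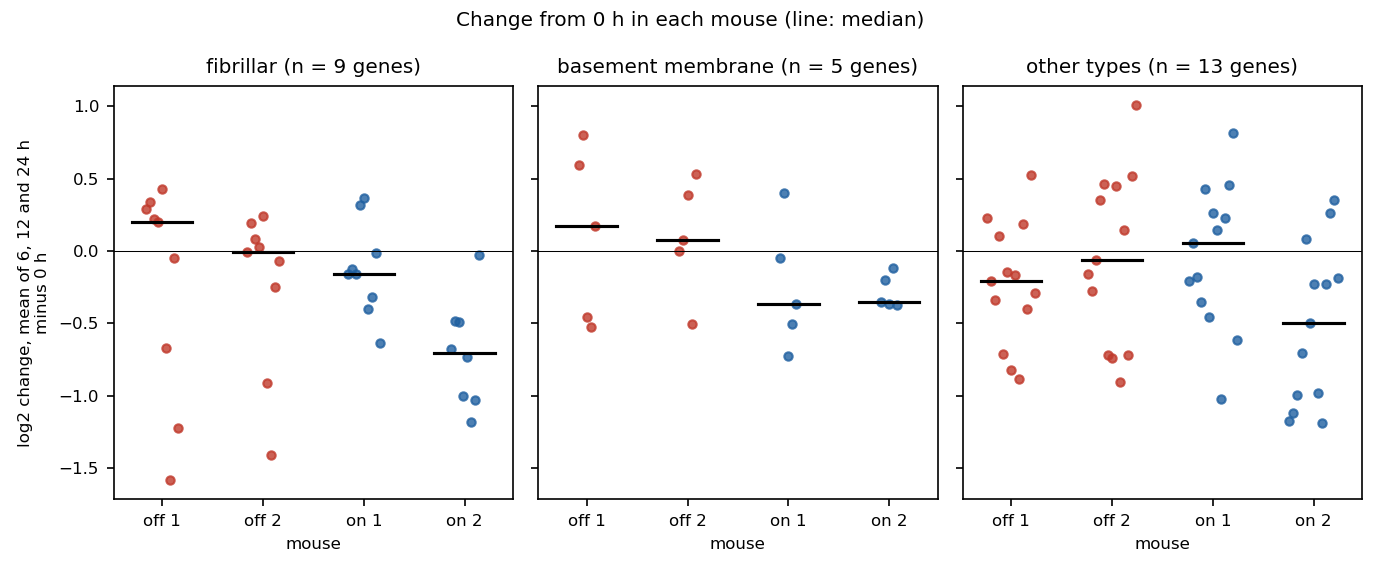
Mean log2 level at 6, 12 and 24 h minus the level at 0 h (y axis) in each of the 4 mice (x axis), with 1 point per collagen gene, 1 panel per class and a line at the median. In TERT-on mouse 2 the 8 fibrillar points all lie below 0 (Col27a1 had no value there at 0 h), and each mouse spans both signs for the other types.

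Of the 41 collagen genes, 14 could not be tested, with 25 probe sets. No array gave any of them more than 33.8, under the table median of 34.4. They were the fibrillar genes Col2a1 and Col24a1, the type IV gene Col4a3, and Col6a4, Col6a5, Col9a1, Col9a2, Col9a3, Col10a1, Col13a1, Col19a1, Col22a1, Col25a1 and Col26a1. Col2a1, the Col9 genes and Col10a1 are collagens of cartilage. The highest value was 15.0 for Col2a1, 9.37 for Col9a3 and 22.8 for Col10a1.

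Of the 27 genes tested, 17 had more than 1 tested probe set. In 1 of them, Col8a1, the probe sets differed in sign, and in 7 they differed in call: Col1a1, Col1a2, Col4a5, Col5a1, Col11a1, Col12a1 and Col14a1. For Col1a1, Col5a1 and Col11a1 the probe set of highest mean, which stood for the gene, was not called while another was. Counted one by one, 17 of the 47 probe sets were called, 12 higher and 5 lower, against 25.9% of all probe sets.

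Several collagen genes are neighbours in the genome. Col3a1 and Col5a2, both called higher, lie 24624 bases apart on chromosome 1, with a Pearson r of 0.91 over the 16 arrays. Col6a1 and Col6a2 lie 85161 bases apart on chromosome 10, with r of 0.95, while Col18a1, called lower, follows 326133 bases beyond Col6a1 with r of -0.64. Col4a1 and Col4a2, which overlap by 85 bases on chromosome 8, had r of 0.79. Col4a5 and Col4a6, 1274 bases apart on chromosome X, had r of 0.21. These arrays share mice, so the correlations are descriptions only, and the coordinates are those of RefSeq in GRCm38.p6.

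The genes outside the collagens most like Col1a1 over the 16 arrays were Polr3gl (r = 0.93), Kazald1 (0.91), Rcn3 (0.90), Dap3 (0.90) and Amot (0.90). Of these, Polr3gl, Rcn3 and Amot were called higher in TERT-off skin over 6 to 24 h, at log2 differences of 0.44, 0.63 and 1.08.

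The genes that make, link, bind and degrade collagen were examined in 8 lists. Of 87 such genes tested, 50 were called over 6 to 24 h, 47 higher and 3 lower in TERT-off skin, against 29.5% of all genes (16.9% higher and 12.6% lower). The count was 39 without TERT-off mouse 1 (21.6% of all genes), 25 without TERT-on mouse 1 (4.57%) and 1 without TERT-on mouse 2 (0.361%). All 4 tested lysyl oxidases, the enzymes that crosslink collagen and elastin, were called higher: Lox by 2.15 on the log2 scale (adjusted p = 3.64e-04), Loxl1 by 1.29, Loxl4 by 1.09 and Loxl3 by 0.82. The list's median was 1.19. At 0 h all 4 already lay above 0, with a median of 0.55, and the mean level of the list was higher in both TERT-off mice (7.20 and 6.69) than in both TERT-on mice (6.19 and 6.52).

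Of 18 genes of collagen synthesis and processing, 8 were higher and 1 was lower (median 0.33). The higher genes included Pcolce2 (1.58) and Pcolce (1.16), enhancers of the enzyme that trims procollagen, and Plod1 (1.04), a lysyl hydroxylase. Plod2, another lysyl hydroxylase, was the lower gene, at -0.90 (adjusted p = 0.0194), and P3h3, a prolyl hydroxylase family member, was higher at 0.94.

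Of 18 proteoglycans and other partners of fibrils, 11 were higher and none lower (median 0.77). Eln, the gene of elastin, led at 1.89 (adjusted p = 0.00214), followed by Ogn (1.25), Thbs2 (1.23) and Lum (1.09), of which Ogn and Lum encode small proteoglycans that bind fibrils. Of 14 basement membrane partners, 6 were higher, led by the laminin genes Lama4 (0.99), Lama2 (0.99) and Lamb3 (0.95), and Lama5 was lower at -0.82 (adjusted p = 0.0359). This list's median was 0.41, against 0.15 for the type IV genes themselves.

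Among 8 collagen-degrading enzymes 6 were higher and none lower (median 1.03). They included Mmp8 (2.30), a collagenase stored by neutrophils, Mmp3 (1.90), Mmp9 (1.10) and Mmp2 (0.99), a gelatinase of fibroblasts. All 5 macrophage markers tested were also higher (median 1.44), as were S100a9 (3.27) and S100a8 (2.13) of the neutrophil list. Their part in the result was not tested. The other neutrophil marker tested, Cxcr2, passed the filter through TERT-off arrays at 24 h alone, so its call is a description and supports nothing. At 0 h S100a9 and S100a8 already stood at 2.71 and 1.94, the macrophage median at 0.72 and that of the degrading enzymes at 0.51. Of 5 receptors, Mrc2 (0.88), which takes up collagen fragments, Ddr2 (0.80) and Itgb1 (0.43) were higher. Of 14 genes of collagen transcription and TGF-beta signalling, Tgfbr2 (0.92), Tgfb2 (0.63) and Creb3l1 (0.60) were higher and Smad7, an inhibitor of that signal, was lower at -1.32 (adjusted p = 0.00637). Among collagen-like genes of other names 6 of 7 were higher, led by the complement genes C1qb (1.53), C1qc (1.32) and C1qa (1.30), which macrophages express, and Colec12 (1.01). At 0 h the differences of C1qb, C1qc and C1qa were 1.13, 0.84 and 1.03.

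Markers of the cells in the biopsy were counted in the same way, beside 16.9% of all genes called higher and 12.6% lower. These marker counts were not redone with a mouse left out. Of 9 dermal fibroblast markers, 5 were higher and 1 lower in TERT-off skin, with a median of 0.69. Over the 8 of them measured on all arrays, the mean log2 intensity of the list was 9.78 to 10.45 over the later TERT-off arrays and 9.30 to 9.79 over the TERT-on arrays. Pdgfra, a receptor that marks dermal fibroblasts, was higher by 1.44 (adjusted p = 0.00238), above the 0.95 of Col5a2. Of 7 endothelial markers 6 were higher, with a median of 0.52. Among basal keratinocyte markers 1 of 6 was higher, and among suprabasal markers 1 of 5 was lower. Dermal papilla markers had 1 of 6 lower, smooth muscle and pericyte markers 2 higher and 3 lower of 7, adipocyte markers 2 of 5 higher and Schwann cell markers 2 of 4 higher.

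Of 10 skeletal muscle markers, which come from the muscle sheet under the dermis, 4 were higher and none lower, with a median of 0.77. Over 9 of them the mean was 9.75 to 10.93 in the later TERT-off arrays and 9.31 to 10.67 in the TERT-on arrays. The lowest values were those of TERT-on mouse 1 at 6 and 12 h (9.31 and 9.34), and at 0 and 24 h that mouse stood at 10.59 and 10.67. The fibrillar collagens of the same mouse stood at 9.10, 8.54, 9.05 and 9.54 at 0, 6, 12 and 24 h. All 11 hair shaft and matrix markers were lower, with a median of -3.86. At 0 h all 11 already lay below 0, with a median of -1.60 and none called. The skeletal muscle median at 0 h was -0.58, with 1 of 10 above 0. The part of these cell types in the collagen differences was not tested.

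**Figure D5:**
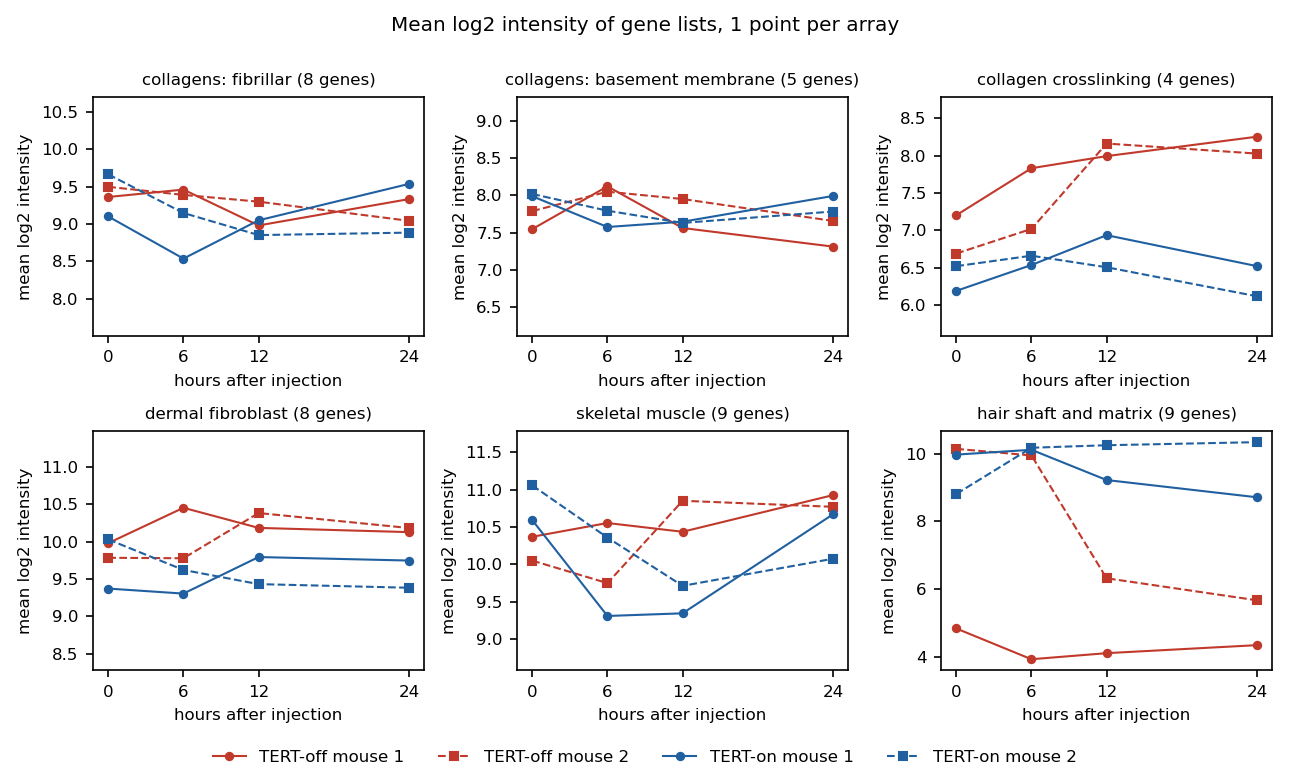
Mean log2 intensity (y axis) of 2 collagen classes, the crosslinking enzymes and 3 marker lists against hours after injection, with 1 point per array and 1 line per mouse, over the genes measured on all 16 arrays. Crosslinking genes lie higher in both TERT-off mice at every time, 0 h included, fibroblast genes at 6, 12 and 24 h, and the hair genes of TERT-off mouse 1 are low already at 0 h.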

How the data were processed

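The arrays measured mRNA of whole dorsal skin, and arrays were grouped by their labels. The authors deposited 1 intensity per probe set and array on a linear scale, after normalization to an invariant set and a model of perfect match minus mismatch signal in dChip. Genes were named from the platform annotation, with symbols updated through RefSeq. Intensities were raised to a floor of 7.71 (the 20th percentile of the table) and taken to log2, and probe sets above the table median of 34.4 on at least 2 arrays were kept. The probe set of highest mean stood for its gene. Under the floor lay 0.298% of kept values. The fit was limma 3.58.1 (R 4.3.3, statmod 1.5.0) on 8 group means, with mouse as a random block, an intensity trend and Benjamini-Hochberg adjustment over all 25563 probe sets. It was tested on simulated data. The study's SAM test was not run.

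The members and lists were chosen with earlier results of these data known. Values in each array were given for the main fibrillar, type IV, VI, VII, XII, XV, XVIII and XX genes, and for Col11a1, which was chosen after its values were seen. Within a cohort, deviations of same-numbered arrays at different times correlated at -0.15 to 0.65, and across cohorts at the same time at -0.12 to 0.11. Across cohorts at different times they correlated at -0.33 to 0.55. The labels do not tie numbers across cohorts, so they were not taken to pair mice there. The correlation within mice that the fit used for all probe sets was 0.073, so arrays of 1 mouse counted as nearly independent. P-values thus measure mainly the spread among these arrays and little of that between mice. Alternatives were the floor, the filter, centring, quantile normalization, blocks, the trend, probe set rules and leaving out arrays.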

Additional observations from a re-analysis of the deposited data

How the results depend on the processing

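Over 6 to 24 h, 5 collagen genes were called with no filter (of 41) and 17 with every probe set on its own (of 47), against 10 of 27, and leaving out 1 mouse gave 0 to 12. At 6 h none was called with no filter and 0 to 3 without 1 mouse, against 1. At 12 h 1 was called with no filter, without the intensity trend or without the 0 h array of TERT-on mouse 1, and 0 to 2 without 1 mouse, against 2. At 24 h 0 to 1 was called without 1 mouse, against 0. Of the related genes, 1 to 52 were called without 1 mouse, against 50. Col4a2, at -0.05, ran from -0.11 to 0.010 on leaving out 1 mouse, and changed sign without TERT-off mouse 1. The cause was not tested.

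With the replicate number as a block, 13 collagen genes were called over 6 to 24 h, and 54 related genes, where 36.6% of all genes were. With it 1 was called at 6 h, 2 at 12 h and 2 rather than 0 at 24 h. With 1 mean per mouse 12 were called over 6 to 24 h, where 23.5% of all genes were, and Col12a1 and Col4a5 were lost. The share of all genes over 6 to 24 h was 22.4% with no filter and 29.5% in the main fit. At single times the share was taken in the main fit alone. Of the alternative values for counts, 136 were equal or within 1.5 times and 20 moved beyond. The 136 include counts of 0 where the main fit also called none, so this total does not measure stability. For single genes, 190 values stayed on the same side of the threshold, 38 no longer passed it, 5 newly passed it and 1 changed sign. The number of arrays limits what could be called.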
